A study of Mus musculus with 24 samples.

Results

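miR-103 and miR-107 are a pair of paralogous microRNAs, and their values were taken from the rows of the array files that carry the names mmu-miR-103 and mmu-miR-107, which makes 2 of the 611 mouse microRNAs on the array. Total RNA from microdissected frozen lung sections was labelled with the dye Cy3 and hybridized to 24 arrays of 1 colour, 1 animal per array. There were 4 groups of 6 mice, all 4 to 6 months old. M WT and F WT were male and female wild type mice. The transgenic males and females, called M c-Raf and F c-Raf, were SP-C/c-raf mice, in which the promoter of surfactant protein C, a gene of alveolar type II cells, drives the c-Raf-1 transgene in the lung epithelium. The tissue label reads lung adenocarcinoma for every sample, the wild type ones included, although the protocol text calls the wild type tissue normal. The comparisons ask whether the level of the pair differed with the transgene or with sex.

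A microRNA pairs with messenger RNAs mainly through its seed, the bases near its 5′ end, and lowers the output of the messages it pairs with. miR-103 and miR-107 lie in introns of the pantothenate kinase genes, which encode the first enzyme of coenzyme A synthesis. Known targets of the pair include the message of Dicer, the enzyme that cuts microRNA precursors, and that of caveolin-1, through which the pair is known to affect insulin signalling. They belong to the miR-15/miR-107 group, whose members share the run AGCAGC close to the 5′ end. That run starts 1 base earlier in miR-103 and miR-107 than in miR-15, miR-16 and their relatives, so the seeds of the 2 sets differ.

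The mature sequences are shown because of how little the members differ. They are the RefSeq entries on assembly GRCm38.p6, written 5′ to 3′ with the seed, bases 2 to 8, in capitals. All 9 names of the miR-15/miR-107 group on the array matched an entry, miR-195 and miR-497 through their present names miR-195a and miR-497a, and 3 relatives are printed for contrast.
miR-103: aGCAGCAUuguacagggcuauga
miR-107: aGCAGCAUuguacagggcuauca
miR-16: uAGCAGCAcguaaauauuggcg
miR-15a: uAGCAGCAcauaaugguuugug
miR-503: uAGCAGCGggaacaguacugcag

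miR-103 and miR-107 were identical at 22 of 23 bases (95.7%), and the single difference was G22C, counted from 1 at the 5′ end with the base of miR-103 first. Of the 1679 mature mouse names in the table, 2 had the seed of miR-103, and these were miR-103 and miR-107 themselves. The mature miR-103 came from 2 loci, Mir103-1 at chr11:35782447-35782469 on the plus strand inside Pank3 and Mir103-2 at chr2:131288103-131288125 on the plus strand inside Pank2. Mir107 lay at chr19:34820700-34820722 on the minus strand inside Pank1. An array signal for miR-103 therefore cannot be assigned to either of its loci, and how much of each member's RNA bound to the other member's probes was not tested.

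Each member was read by 2 probes of 10 spots each. Spot intensities were divided by the brightness of the array, the 75th percentile taken across all spots of the 27 mouse microRNAs that every one of the 24 arrays detected, and the value of a member is the log2 of the median over its 20 spots. A value of 0 thus means a signal as bright as that percentile, and the floor of 0.01 lies at -6.64. The brightness ran from 34.9 to 1212 intensity units. The M c-Raf arrays had the highest median, 433, followed by F WT arrays with 265, F c-Raf arrays with 193 and M WT arrays with 176. The 2 dimmest arrays were M c-Raf replicate 6 (34.9) and M WT replicate 4 (52.8), and the main values of the pair are given with and without them. F WT replicate 6 came next (57.2) and was kept. Both members were detected there, at -2.88 for miR-103 and -3.62 for miR-107. Each of the 6 slides carried 1 array of every group, always at the same place on the slide, so place and group cannot be told apart. The epithelial markers miR-200b and miR-200c were detected on all 24 arrays and the endothelial marker miR-126-3p on 23, and the neuronal markers miR-124 and miR-9 on 0. Of the 4 leukocyte markers, miR-223 was detected on 12 arrays, miR-150 on 7, and miR-142-3p and miR-142-5p on 0. Of the 5 muscle markers, miR-133b was detected on 18 arrays, miR-133a on 14 and the other 3 on 0.

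miR-103 was detected on 23 of the 24 arrays and miR-107 on 22. Both were missed on M c-Raf replicate 6, and miR-107 also on M WT replicate 4. Neither member passed the test in any of the 6 comparisons made.

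miR-103 had a log2 scaled intensity of -3.09 ± 0.42 in M WT (mean ± SD, n = 6 in this and every other group), with a lowest array of -3.89, a median of -2.98 and a highest array of -2.73. In F WT it was -2.79 ± 0.20, from -3.02 over a median of -2.77 to -2.57. In M c-Raf it was -2.78 ± 0.32, from -3.25 over a median of -2.83 to -2.43. In F c-Raf it was -2.70 ± 0.12, from -2.86 over a median of -2.69 to -2.51. The order of the means was F c-Raf, M c-Raf, F WT and M WT, and the ranges of all neighbours in this order overlapped. The lowest array of all was M WT replicate 4, and the lowest of M c-Raf was replicate 6, the 2 dimmest arrays of the study. F WT replicate 6, the next dimmest, lay inside the range of the other F WT arrays.

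miR-107 had a log2 scaled intensity of -3.83 ± 0.61 in M WT, with a lowest array of -5.01, a median of -3.67 and a highest array of -3.21. In F WT it was -3.51 ± 0.18, from -3.69 over a median of -3.58 to -3.23. In M c-Raf it was -3.37 ± 0.11, from -3.48 over a median of -3.40 to -3.25. In F c-Raf it was -3.56 ± 0.20, from -3.84 over a median of -3.48 to -3.38. The order of the means was M c-Raf, F WT, F c-Raf and M WT, again with overlapping ranges between neighbours. Of the 6 M WT arrays, 5 lay below the lowest M c-Raf array, but M WT replicate 2 lay above the highest one, so the male groups overlapped too.

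**Figure D1:**
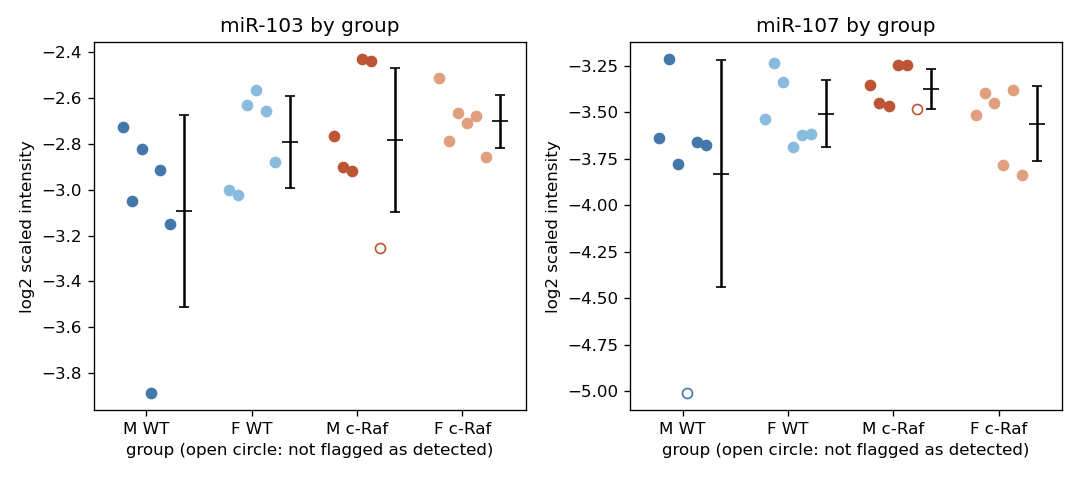
Log2 scaled intensity of miR-103 (left) and miR-107 (right) on each array, in the order of the replicate numbers within a group, with the mean and SD of the 6 arrays as a bar beside the points; open circles are arrays on which the member was not flagged as detected. M WT replicate 4, at -3.89 for miR-103 and -5.01 for miR-107, is the lowest array in both panels.

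In males, miR-107 was 0.46 higher in c-Raf than in wild type lungs on the log2 scale (SE 0.20, 95% interval 0.04 to 0.87). Its adjusted p was 0.186 by limma, after Benjamini-Hochberg adjustment over the 120 microRNAs tested, from an unadjusted p of 0.0326. miR-103 differed by 0.31 (SE 0.17, 95% interval -0.05 to 0.67, adjusted p = 0.262 by limma). Of the 120 microRNAs, 3 (2.5%) were called in this comparison, 25 had an unadjusted p below 0.05, and the median difference of all 120 was 0.13. Both differences rested in large part on 1 array. Without M WT replicate 4 the difference was 0.22 for miR-107 and 0.15 for miR-103, and without both of the dimmest arrays it was 0.24 for each. Within the 6 slides, miR-107 was higher in M c-Raf on 5 and miR-103 on 3. The slide that held M WT replicate 4 gave 1.76 for miR-107 and 1.46 for miR-103, the highest values of the 6 slides.

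In females, neither member passed the test. The 95% interval of miR-103 was -0.27 to 0.45 around a difference of 0.09 (SE 0.17, adjusted p = 0.894 by limma). That of miR-107 was -0.47 to 0.36 around a difference of -0.05 (SE 0.20, adjusted p = 0.939 by limma). In this comparison 6 of the 120 microRNAs (5%) were called, and their median difference was 0.03. Within slides, miR-103 was higher in F c-Raf on 3 of 6 and miR-107 on 2 of 6.

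With the sexes averaged, both members were 0.20 higher in c-Raf lungs. The SE was 0.12 for miR-103 (95% interval -0.05 to 0.45, adjusted p = 0.301 by limma) and 0.14 for miR-107 (95% interval -0.09 to 0.49, adjusted p = 0.368 by limma). Without M WT replicate 4 these differences were 0.12 and 0.08, and without both of the dimmest arrays 0.17 and 0.09. Here 22 of the 120 microRNAs (18.3%) were called, so the test made calls with these arrays, and the pair was not among them. The transgene difference was 0.51 larger in males than in females for miR-107 (SE 0.28, unadjusted p = 0.0851, adjusted p = 0.872 by limma) and 0.22 larger for miR-103 (SE 0.24, adjusted p = 0.872 by limma). None of the 120 microRNAs (0%) was called for this difference between the sexes by limma, and 5 had an unadjusted p below 0.05. Without M WT replicate 4 it was 0.27 for miR-107 and 0.06 for miR-103.

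Between the sexes, miR-103 was lower in M WT than in F WT by a log2 difference of -0.30 (SE 0.17, adjusted p = 0.562 by limma) and miR-107 by -0.32 (SE 0.20, adjusted p = 0.579 by limma). No microRNA (0%) was called in that comparison by limma, where 11 had an unadjusted p below 0.05 and the median difference was -0.12. Without M WT replicate 4 these differences were -0.14 and -0.09. Among c-Raf mice, the male minus female difference was -0.08 for miR-103 (SE 0.17, adjusted p = 0.992 by limma) and 0.19 for miR-107 (SE 0.20, adjusted p = 0.952 by limma), in a comparison with 3 calls (2.5%). Without M c-Raf replicate 6 the difference for miR-103 was 0.01. The comparisons share groups, so their values are not independent of each other.

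**Figure D2:**
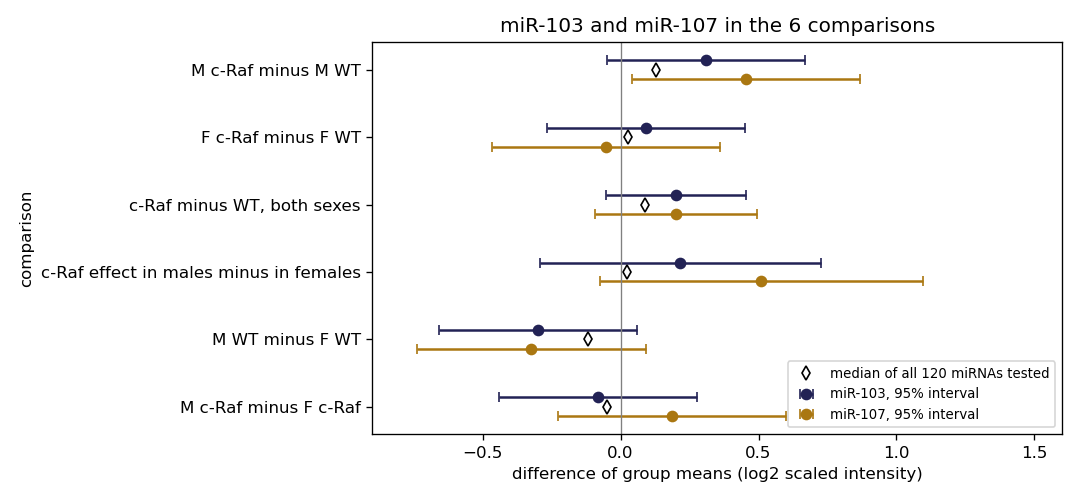
Difference of group means on the log2 scale (horizontal axis) for miR-103 and miR-107 in the 6 comparisons, with 95% intervals from limma, and the median difference of all 120 microRNAs tested as open diamonds. The interval of miR-107 in males, 0.04 to 0.87, is the only one that leaves out 0, and its adjusted p was 0.186.

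The first and the second probe of each member gave different signals. On 23 arrays for miR-103 and on 20 for miR-107, every spot of the first probe was brighter than every spot of the second. The median over 20 spots then falls between the 2 probes, at the mean of the dimmest spot of the first and the brightest spot of the second. All 10 spots of the first probe were well above background on 22 arrays for miR-103 and on 18 for miR-107. For the second probe this held on 4 arrays for miR-103 and on 5 for miR-107, and on 14 and 12 arrays, respectively, none of its spots was well above background.

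The first probe alone gave tight groups in females. For miR-103 it was -1.85 ± 0.14 in F WT and -1.76 ± 0.13 in F c-Raf (mean ± SD, n = 6), a difference of 0.09 (SE 0.19, adjusted p = 0.902 by limma). For miR-107 it was -2.79 ± 0.09 in F WT and -2.81 ± 0.09 in F c-Raf, a difference of -0.02 (SE 0.20, adjusted p = 0.989 by limma). In these 12 female arrays the bright probe of miR-107 stayed between -2.95 and -2.67.

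In males the spread of the first probe was wider, with SDs of 0.40 in M WT and 0.46 in M c-Raf for miR-103, and of 0.59 and 0.29 for miR-107. The male transgene difference was 0.23 for the first probe of either member (SE 0.19 and adjusted p = 0.399 for miR-103, SE 0.20 and adjusted p = 0.432 for miR-107 by limma). On M WT replicate 4 the first probe stood at -2.86 for miR-103 and -4.24 for miR-107. The other M WT arrays ran from -2.06 to -1.76 for miR-103 and from -2.91 to -2.70 for miR-107. In M c-Raf the lowest first-probe values, -2.57 and -3.36, were those of replicate 6. The second probe gave 0.48 for miR-103 (SE 0.35, adjusted p = 0.345 by limma) and 0.50 for miR-107 (SE 0.22, adjusted p = 0.192 by limma). For miR-107, M c-Raf replicate 6 held the highest second-probe value of its group, -3.48, and M WT replicate 4 the lowest of its group, -5.68. The differences of either probe were not computed without these 2 dimmest arrays. The second probe had a spot well above background on 1 of 6 M WT arrays for either member, against 4 of 6 M c-Raf arrays for miR-103 and 5 of 6 for miR-107. The last count includes replicate 6, where miR-107 was not detected and 1 spot of the second and 0 of the first probe passed. M WT was also the group with the lowest median brightness, and the part of this in the difference was not tested.

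**Figure D3:**
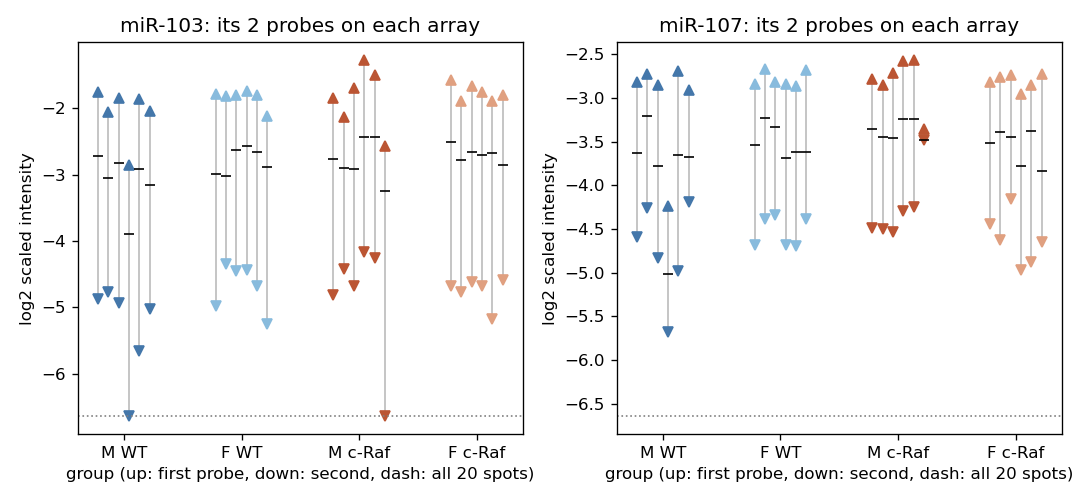
Log2 scaled intensity of the first probe (upward triangles) and the second probe (downward triangles) of miR-103 (left) and miR-107 (right) on each array, in the order of the replicate numbers within a group, with the median of all 20 spots as a dash and the floor of -6.64 as a dotted line. The first probes of the female groups sit close together, and the second probe of miR-103 is at the floor on 2 arrays.

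The level of miR-103 went with the brightness of the array. Over the 24 arrays, Pearson's r between its log2 scaled intensity and log2 brightness was 0.70 (permutation p = 0.0001, adjusted p = 0.0003 over 3 relations) and Spearman's rho was 0.63 (permutation p = 0.00124). Leaving out M c-Raf replicates 4 and 6, the 2 arrays most distant from the median brightness, gave an r of 0.63 (permutation p = 0.00112). Over the 6 arrays of a group, r was 0.98 for M WT, 0.91 for M c-Raf, 0.56 for F WT and -0.07 for F c-Raf, the male groups holding the 2 dimmest arrays. Spearman's rho in these groups was 1, 0.83, 0.60 and -0.20, in the same order. Within the scan batches of 8 arrays r was 0.77 and 0.38. The other scan batches held under 6 arrays. Brightness is the divisor of the level, so the 2 measures share it, and the median brightness was 433 in M c-Raf against 176 in M WT. The part of brightness in the level of miR-103 was not tested.

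For miR-107, r with log2 brightness was 0.38 (permutation p = 0.0757, adjusted p = 0.0757) and rho was 0.13 (permutation p = 0.537). Without the same 2 arrays r was 0.43 (permutation p = 0.0561). Within the scan batches of 8 arrays r was 0.18 and -0.34, and within groups it ran from -0.42 in F c-Raf to 0.76 in M WT.

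**Figure D4:**
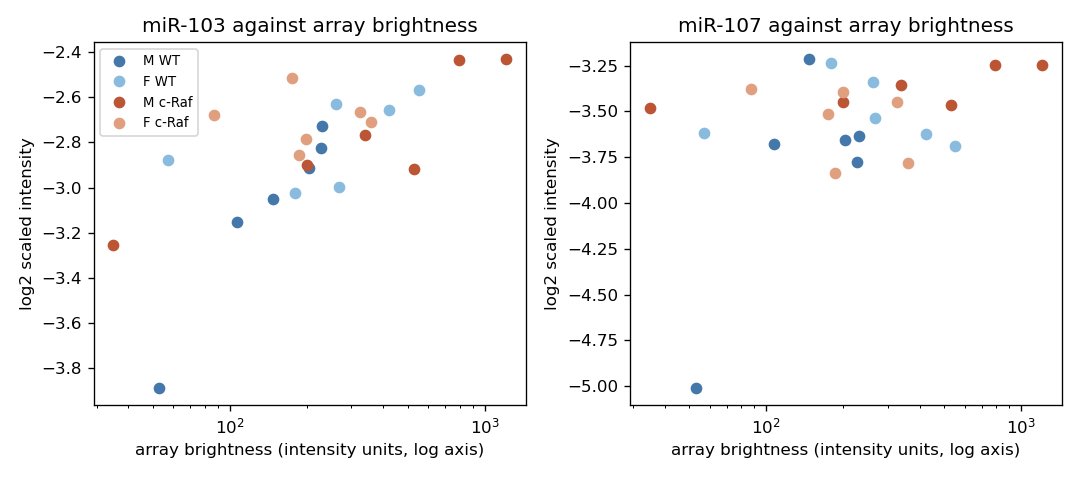
Log2 scaled intensity of miR-103 (left) and miR-107 (right) against the brightness of the array in intensity units on a log axis, with 1 point per array and the colour giving the group. The points of miR-103 rise with brightness (r = 0.70 over 24 arrays), and those of miR-107 lie between -3.84 and -3.21 apart from M WT replicate 4 at -5.01.

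Across the 24 arrays the pair correlated with r = 0.67 (permutation p = 0.0116, adjusted p = 0.0174 over 3 relations), but rho was 0.20 (permutation p = 0.345). Without M c-Raf replicate 6 and M WT replicate 4, the 2 arrays farthest from the median of miR-103, r was 0.16 (permutation p = 0.482), so the relation over all 24 arrays rests on those 2. Within the scan batches of 8 arrays r was 0.47 and -0.34. Over the 6 arrays of a group it was 0.94 for M c-Raf, 0.84 for M WT, 0.41 for F c-Raf and -0.43 for F WT. Spearman's rho was 1 for M c-Raf, 0.43 for M WT, 0.31 for F c-Raf and -0.66 for F WT. In M c-Raf both members thus ranked the arrays in the same order, with or without replicate 6. Each male group includes 1 of the 2 dimmest arrays, and without it would hold under 6.

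The ratio of the 2 members within an array does not change when all values of an array are divided by 1 factor, as was done here. Its differences between groups compare the signals of the members' probes, which may share RNA. The log2 ratio of miR-103 to miR-107 was 0.74 ± 0.35 among M WT arrays and 0.59 ± 0.22 among M c-Raf arrays (mean ± SD, n = 6). Female arrays had 0.71 ± 0.32 without the transgene and 0.86 ± 0.19 with it. Its transgene difference was -0.15 in males (exact permutation p = 0.39, adjusted p = 0.519 over 4 comparisons) and 0.14 in females (exact permutation p = 0.368, adjusted p = 0.519), both two-sided. The male value was -0.07 without M WT replicate 4 and 0.002 without both of the dimmest arrays, so its sign rested on them. In M c-Raf the ratio was lower than in F c-Raf by a log2 difference of -0.27 (exact permutation p = 0.0498, adjusted p = 0.199), and between the wild type sexes the difference was 0.02 (exact permutation p = 0.944, adjusted p = 0.944). Without both of the dimmest arrays these 2 values were -0.20 and -0.05. The smallest p that 6 arrays against 6 allow is 0.00216. The M c-Raf arrays ran from 0.23 to 0.82 and the F c-Raf arrays from 0.61 to 1.08, so these groups overlapped as well.

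The relatives with the shifted seed give the wider family beside the pair. The miR-15/miR-107 group has 9 members on the array, and 8 were tested, since miR-503 was at the floor on all 24 arrays. In males all 8 differences were above 0, with a median of 0.41 against 0.13 over all 120 microRNAs, and 0 were called (2.5% of all). In females 5 of 8 were above 0, with a median of 0.17 against 0.03, and again 0 were called (5% of all). With the sexes averaged 1 of 8 was called, 7 were above 0 and the median was 0.27 against 0.09, beside 18.3% called among all. The share of all 120 microRNAs with a difference above 0 was not computed, so the counts above 0 stand without it. No member was called in the other 3 comparisons, in which the median was 0.26 for the difference between the sexes in the transgene effect, -0.31 for M WT minus F WT and -0.16 for M c-Raf minus F c-Raf. The same 6 M WT arrays enter each of the 4 comparisons with the largest medians. Without both of the dimmest arrays the median was 0.24 in males, where 7 of 8 differences were above 0, and 0.20 with the sexes averaged, 0.15 for the difference between the sexes, -0.20 for M WT minus F WT and -0.04 for M c-Raf minus F c-Raf. With the replicate number, which is the slide, as a block, miR-497 was called in M c-Raf minus F c-Raf, at a log2 difference of 0.53 (adjusted p = 0.0276 by limma, against 0.206 without the block).

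The member called was miR-16, known to repress the message of the survival factor Bcl2. Its log2 scaled intensity was 0.93 higher in c-Raf lungs of both sexes averaged (SE 0.27, adjusted p = 0.0217 by limma). It was detected on 4 of 6 M c-Raf and 5 of 6 F c-Raf arrays, against 1 of 6 M WT and 2 of 6 F WT arrays. miR-16 thus reached the 6 arrays needed for testing only with c-Raf arrays, where it was then called higher. At least 1 array of M WT, of F WT and of M c-Raf stood at the floor, so the size depends on the floor. At a floor of 0.1, and with the brightness taken over all spots of the array or without any scaling, the call was lost. miR-15a, which is cut from the same primary transcript as a copy of miR-16, differed by 0.34 (SE 0.23, adjusted p = 0.332 by limma) and miR-15b by 0.00 (SE 0.20, adjusted p = 0.999 by limma). miR-322 was at the floor on every M WT array, and its difference of 0.56 (SE 0.24, adjusted p = 0.109 by limma) depends on the floor too. miR-195 differed by 0.39 and its cluster neighbour miR-497 by -0.05, neither of them called.

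The 3 tested microRNAs whose log2 values followed miR-103 most closely over the 24 arrays were miR-126-3p (r = 0.80), miR-26a (r = 0.75) and let-7d (r = 0.74), against a median r of 0.09 over all others tested. For miR-107 they were miR-27a (r = 0.86), let-7i (r = 0.85) and miR-29a (r = 0.80), against a median of 0.10. The 2 sets of 3 had no name in common. All of these values share the divisor of the array, and the correlations were lower without the 2 dimmest arrays. Over the other 22 arrays r was 0.54, 0.37 and 0.62 for the 3 named with miR-103, and 0.39, 0.45 and 0.29 for the 3 named with miR-107. miR-126-3p, an endothelial marker, was itself called with the sexes averaged, 0.75 higher in c-Raf lungs (adjusted p = 0.0217 by limma), and the summed level of the 2 endothelial markers ran from 0.0740 to 0.324 on M WT, 0.198 to 0.459 on M c-Raf, 0.223 to 0.320 on F WT and 0.286 to 0.519 on F c-Raf arrays (scaled intensity, not log2). Its second member, miR-126-5p, was detected on 0 arrays. The summed level of the 5 epithelial markers ran from 0.611 to 1.39 on M WT, 0.671 to 1.97 on M c-Raf, 0.827 to 1.61 on F WT and 1.13 to 1.86 on F c-Raf arrays, with miR-141 detected on 1 array. The median of this sum was 0.960 on M c-Raf against 1.005 on M WT arrays, and 1.514 on F c-Raf against 1.046 on F WT arrays. No epithelial marker was called in either sex alone, and miR-200c, detected on all 24 arrays, was not called in any comparison. With the sexes averaged, the epithelial markers miR-200a, miR-200b and miR-429 were called higher in c-Raf lungs. Their log2 differences were 0.73, 0.75 and 0.73 (adjusted p = 0.0217, 0.0482 and 0.0180 by limma). miR-200a was detected on 4 M c-Raf and 5 F c-Raf arrays, against 0 M WT and 2 F WT arrays. For miR-429 these counts were 4 and 5, against 1 and 3. Both thus reached the number of arrays needed for testing only with c-Raf arrays, where they were then called higher. miR-200b was detected on all 24 arrays. The erythroid marker miR-486 was called lower, with a log2 difference of -1.10 (adjusted p = 0.00213 by limma), and in males alone with -1.41 (adjusted p = 0.0161 by limma). The summed level of the 3 erythroid markers ran from 0.110 to 0.521 on M WT, 0.102 to 0.184 on M c-Raf, 0.122 to 0.253 on F WT and 0.102 to 0.197 on F c-Raf arrays, with miR-144 detected on 0 arrays. The other erythroid marker, miR-451, was detected on 4 M c-Raf and 5 F c-Raf arrays, against 2 M WT and 4 F WT arrays. It was not called in any comparison. The part of cell type shares in the values of the pair and of miR-16 was not tested, and in such tissue a smaller share of a cell type and less RNA per cell cannot be told apart.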

How the data were processed

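The authors deposited, per array, background-subtracted spot intensity from Agilent Feature Extraction (version 10.7.3.1 in the file headers, design build mm9:NCBI37:Jul2007), not scaled between arrays, and 1 table of processed intensity values. Each spot was scaled to the 75th percentile of its array across the 27 microRNAs detected everywhere, values below 0.01 were set to 0.01, the median of 20 spots was taken and log2 computed. No spot was saturated (0). microRNAs detected on at least 6 of 24 arrays were tested (120 of 611) with limma 3.58.1 (R 4.3.3), 1 mean per group, two-sided, called at an adjusted p under 0.05. The exact permutation and 100000-resample tests used scipy 1.17.1. The number of arrays limits the precision. Replicate numbers were the slides. Over 36 same-numbered pairs of arrays, correlations of deviations ran from -0.42 to 0.72 (median 0.36), against a median of -0.06 over 180 pairs of other numbers. The main limma fit, ratio tests and correlation tests did not take the slide into account, and blocks were used only as alternatives. Named were the pair, the miR-15/miR-107 group and the 3 microRNAs most like each member. Members and lists were chosen with earlier results of these data known. Alternatives covered scaling, background, spot summaries, probes, floor, filter, blocks, the methods' t-test and single arrays left out. The normexp alternative used median spot and background intensity.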

Additional observations from a re-analysis of the deposited data

Results flagged for a closer look

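M WT replicate 4 lay apart from the other 5 arrays of its group for both members. For miR-103 its log2 value was -3.89 against -3.15 for the next array, and the gap made up 0.635 of the whole range of the group. For miR-107 it was -5.01 against -3.78, with a gap of 0.685 of the range. Both gaps exceed the 95% limit of Dixon's test for 6 values, and 12 sets of 6 values were examined, of which chance flags about 5%. The array had a brightness of 52.8, and 2 of the 10 spots of the first probe of miR-103 and 0 of the 10 spots of the first probe of miR-107 were well above background there.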

How the results depend on the processing

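Neither member was called under any alternative: 0 of 236 member differences with another setting (lowest adjusted p 0.101) and 0 of 288 with 1 array left out (lowest 0.085). The sign turned in 30 and 3 of these. The lowest adjusted p with another setting, 0.101 by limma, was itself such a case. It belonged to miR-107 with normexp, at -1.05 for the difference between the sexes in the transgene effect, against 0.51 in the main fit. The ratio was called in 0 of 40 and 0 of 96, and its sign turned in 13 and 5.

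Values that turned sign were these. For M c-Raf minus F c-Raf, miR-103 was 0.0217 when every non-control spot set the percentile, 0.10 with controls included, 0.61 unscaled, 0.00319 centred, 0.51 with outlier spots out, 0.0116 without M c-Raf replicate 6 (with or without M WT replicate 4) and 0.59 by the methods' t-test. miR-107 there was -0.16 with quantile normalization, -0.18 with the total gene signal and -0.000269 with the first probe. For F c-Raf minus F WT, miR-103 was -0.13 unscaled, -0.78 with outlier spots out, -0.13 with the total gene signal, -0.0654 with the second probe and -0.0160 in the deposited table, and miR-107 was 0.0628 and 0.00638 with the percentile over non-control and all spots, 0.00184 without F c-Raf replicate 6 and 0.000859 without F WT replicate 2. With the sexes averaged, outlier spots out gave -0.0174 and -0.12 for miR-103 and miR-107, and the total gene signal gave -0.17 for miR-103, with -0.22 in males and -0.0945 for the difference between the sexes. Normexp gave miR-103 -0.33 in males, -0.79 for the difference between the sexes and 0.22 for M WT minus F WT, and miR-107 -0.51, 0.54 in females, -1.05, 0.38 and -0.67 for M c-Raf minus F c-Raf. The cause was not tested. Without turning sign, outlier spots out moved miR-103 to 0.75 in males, -1.03 for M WT minus F WT and 1.53 for the difference between the sexes (adjusted p = 0.914 by limma), and miR-107 to 0.21, -0.16 and 0.66. For miR-103, 20 spots on 14 arrays were flagged as outliers, and without them its median moved by over 0.5 on 13 arrays. For miR-107, 20 spots on 12 arrays were flagged, and its median moved by over 0.5 on 4. The part of the gap between the 2 probes in these moves was not tested.

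The median male difference of all microRNAs moved from 0.13 to 1.01 and 1.03 with the percentile over non-control and all spots, to 1.52 unscaled and to -0.79 with normexp. Against these medians miR-103 stood at 1.01, 1.03, 1.49 and -0.33 and miR-107 at 1.15, 1.18, 1.63 and -0.51. The methods' t-test at their p and fold thresholds counted 11, 3, 1 and 3 microRNAs in males, females, wild type and c-Raf sexes, and 0 in each after adjustment (at most 559 tested), the pair included in none. The further threshold of the methods, on the mean signal, was not applied in these counts.

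The ratio turned sign with normexp (0.19 in males, -0.0724 in females, -0.16 for M WT minus F WT, 0.10 for M c-Raf minus F c-Raf), with outlier spots out (0.54, -0.33, -0.86, 0.0139), with the first probe in males (0.00282), and for M WT minus F WT with the mean of probe medians (-0.0249), the second probe (-0.40) and both dimmest arrays out (-0.0529, and 0.00222 in males). The relation of miR-107 to brightness passed its threshold at r = 0.87 and 0.89 with the percentile over non-control and all spots, 0.69 with quantiles, 0.97 unscaled, 0.52 centred and 0.67 at a floor of 0.1. Normexp gave -0.81 for miR-103 and -0.86 for miR-107. Without both dimmest arrays, miR-103 with miR-107 lost its call (r = 0.16).

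With 1 array left out, differences ranged as follows: males, miR-103 0.15 to 0.40, miR-107 0.22 to 0.58; females, 0.0449 to 0.14 and -0.0901 to 0.00184; averaged, 0.12 to 0.25 and 0.0827 to 0.26; difference between the sexes, 0.0574 to 0.31 and 0.27 to 0.63; M WT minus F WT, -0.37 to -0.14 and -0.45 to -0.0868; M c-Raf minus F c-Raf, -0.15 to 0.0116 and 0.13 to 0.22. The ratio ranged from -0.26 to -0.0703 in males, 0.0440 to 0.23 in females, -0.0770 to 0.14 and -0.32 to -0.20 between the sexes.

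Of the miR-15/miR-107 group, 1 was called with the sexes averaged. The count was 0 with the percentile over non-control or all spots, unscaled, with normexp, at a floor of 0.1 and with no filter. It was also 0 over microRNAs detected on all arrays, but that filter left miR-16 and miR-322 untested. It was 2 (miR-322 added) with quantiles, the mean of probe medians, the scan block or F WT replicate 2 left out (range 1 to 2). Centring and a floor of 0.001 called miR-322 in place of miR-16. Both miR-16 and miR-322 passed the detection filter only with c-Raf arrays, where they were then higher. Otherwise 1 was called in males at a floor of 0.001 (miR-322) or without M c-Raf replicate 6 (miR-16; range 0 to 1), and 1, miR-497, in M c-Raf minus F c-Raf with the replicate block, the scan block or without M WT replicate 4 (range 0 to 1).

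With the replicate block, males gave 0.46 for miR-107 (adjusted p = 0.11) and 0.31 for miR-103 (adjusted p = 0.234), and within-slide differences of the ratio gave -0.15 in males. The block changed no call of the pair. Quantile normalization, which is no division by 1 factor per array, gave ratio differences of -0.22 in males, 0.10 in females, 0.07 for M WT minus F WT and -0.26 for M c-Raf minus F c-Raf. It was, for the ratio, chosen after seeing the data, and so were leaving out both dimmest arrays and setting the floor after the median, and the latter left the values of the pair as they were (0.31 and 0.46 in males). The members were not detected on all arrays, so that filter gave no value for them. The dim second probes limit the precision of both members.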
